A study of Mus musculus with 4 samples.

Results

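A set of 10 transcription factor genes of myeloid differentiation was followed across single bone marrow cells: Cebpa, Cebpb, Cebpd, Cebpe, Spi1, Gfi1, Irf8, Klf4, Runx1 and Zeb2. The genes were chosen by symbol, and all 10 were found once among the 32285 genes measured. The study profiled CD45.2+Kit+ mouse bone marrow at 10 weeks post-transplantation by CITE-seq, which reads RNA and barcoded surface antibodies from the same cell (10x Chromium 3′ chemistry with feature barcoding). There were 4 groups with 1 library each: control, Mll3SI, Mll4SI and Mll3/4SI. The labels do not spell out SI; the library names given beside them are wt, mll3KI, mll4KI and dKI. Kit, a receptor of progenitor and mast cells, and CD45.2, the allele of the pan-leukocyte antigen used to follow grafted cells, define the sorted cells, so every group is a sort of Kit-positive marrow and not whole marrow. The labels give no strain, sex, age or number of donors or recipients. The purpose of the 2 hashtag antibodies is not stated. MLL3 (Kmt2c) and MLL4 (Kmt2d) are histone methyltransferases of the COMPASS family that act at enhancers. The comparison asks how the libraries carrying 1 or both alleles differ from control. With 1 library per group there is no test, and differences below are those of single libraries, with 95% intervals that cover counting error only.

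Blood progenitors choose between granulocyte, monocyte, erythroid, mast and lymphoid fates under a small circuit of transcription factors. Runx1 and Spi1 (PU.1) act from the stem cell onward, and Cebpa opens the granulocyte-monocyte program. Cebpe and Gfi1 drive granulocyte maturation, with Gfi1 a repressor of monocyte genes, whereas Irf8 and Klf4 promote monocyte and dendritic fates. Cebpb is known for granulocyte production under stress, Cebpd is a further C/EBP family member of maturing myeloid cells, and Zeb2 is a repressor used by stem cells, monocytes and dendritic cells.

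The genes lie on 7 chromosomes of GRCm38 (GENCODE M21 gene models). Cebpa (7, 35119293 to 35121928), Cebpb (2, 167688915 to 167690418) and Cebpd (16, 15887286 to 15891031) are genes of 1 exon on the forward strand, and Cebpe (14, 54710360 to 54712174) lies on the reverse strand. Spi1 (2, 91082390 to 91115756) and Irf8 (8, 120736358 to 120756694) are on the forward strand. Gfi1 (5, 107716657 to 107726036), Klf4 (4, 55527143 to 55532466), Runx1 (16, 92601466 to 92826149) and Zeb2 (2, 44983632 to 45117395) are on the reverse strand. Irf8 overlaps Gm20388 on its own strand, so its count is uncertain by the reads the 2 gene models share.

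Promoter sequence is given for Irf8, Cebpb and Zeb2, on which the comparisons below turn. Each run is the 250 bases before the RefSeq start in GRCm38.p6, 5′ to 3′ on the gene's strand, with matches to the 6 motifs searched in capitals. Irf8 has 2 promoters in the RefSeq table and Zeb2 4, and the one at the start of the principal transcript is shown.
Irf8, chr8:120736108-120736357, forward strand: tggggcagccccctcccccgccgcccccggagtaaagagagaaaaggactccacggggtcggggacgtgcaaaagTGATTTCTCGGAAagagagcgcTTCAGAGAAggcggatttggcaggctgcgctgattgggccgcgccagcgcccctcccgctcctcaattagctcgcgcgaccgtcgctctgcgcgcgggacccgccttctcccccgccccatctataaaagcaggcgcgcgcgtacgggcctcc
Cebpb, chr2:167688665-167688914, forward strand: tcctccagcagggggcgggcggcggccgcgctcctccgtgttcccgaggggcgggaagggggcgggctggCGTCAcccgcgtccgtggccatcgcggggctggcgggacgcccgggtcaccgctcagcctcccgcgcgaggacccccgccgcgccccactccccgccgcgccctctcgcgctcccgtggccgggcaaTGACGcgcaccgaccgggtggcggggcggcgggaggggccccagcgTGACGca
Zeb2, chr2:45113280-45113529, reverse strand: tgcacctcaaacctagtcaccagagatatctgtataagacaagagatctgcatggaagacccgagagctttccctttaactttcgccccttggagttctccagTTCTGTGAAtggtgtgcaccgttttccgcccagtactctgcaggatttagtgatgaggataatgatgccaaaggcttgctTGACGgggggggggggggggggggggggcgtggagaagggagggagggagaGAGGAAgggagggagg
The motifs, searched on both strands, were TTGCNNAA for C/EBP, GAGGAA for PU.1, TGTGGT for RUNX, AAATCA for GFI1, TTCNNNGAA for STAT and TGACG for a half-site of CREB. Irf8 held 2 STAT matches, which start 171 and 153 bases before the gene, and a GFI1 match at 175 that overlaps the first of them. Cebpb held CREB half-sites at 180, 53 and 7 bases, and Zeb2 held a PU.1 match at 16, a CREB half-site at 67 and a STAT match at 147. Of 32851 promoters of this length, 7.02% held the STAT letters, 12.4% the GFI1 letters, 23.3% the PU.1 letters and 17.8% the CREB half-site. A match describes letters in this window and no binding.

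After filters and removal of likely doublets, 6743 control, 8023 Mll3SI, 10186 Mll4SI and 6755 Mll3/4SI cells were kept, with median UMIs (unique transcripts) of 16973, 13603, 12800 and 19185. Library pairs shared 16 to 29 cell barcodes. Cells were clustered without the members, and clusters were called X-like from marker genes. Late granulocyte-like cells made up 51.9%, 48.3%, 71.8% and 51.2% of the 4 libraries in that order, and HSC/MPP-like (stem and multipotent progenitor) cells 13.2%, 10.7%, 7.56% and 4.87%. Kit, the sorted antigen, was read at 112, 100, 101 and 109 CPM (the UMIs of a gene relative to all gene UMIs of the same cells) over all kept cells. Its RNA was lower in late granulocyte-like cells, at 39.6, 33.3, 55.5 and 43.0 CPM, than in HSC/MPP-like cells, at 219, 214, 229 and 203 CPM. The labelled alleles are those of Kmt2c, read at 130, 110, 147 and 123 CPM, and Kmt2d, read at 41.3, 38.0, 35.1 and 33.3 CPM; these levels do not show an allele and check no label. Xist was read at 0.0315, 0.194, 1148 and 1360 CPM and the Y-linked Eif2s3y at 63.3, 62.0, 0 and 0 CPM, so the sex-linked difference and the alleles cannot be told apart in Mll4SI and Mll3/4SI. Of 27 clusters, 7 drew over 80% of their cells from 1 library (3 from Mll4SI and 4 from Mll3/4SI), and ratios of members called in a class with such clusters are given with and without them. Late granule genes read in erythroid-like cells, which should lack them, were higher in Mll4SI: Camp stood at 7.41% of its all-cell level there and at 1.27%, 1.78% and 0.678% in control, Mll3SI and Mll3/4SI.

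The early-acting factors Runx1, Spi1 and Cebpa were read in every myeloid class, and in HSC/MPP-like and monocyte-like cells no library differed from control by the fold used below. Runx1 stood at 703, 724, 858 and 715 CPM in HSC/MPP-like cells of control, Mll3SI, Mll4SI and Mll3/4SI, with Mll4SI above the other libraries. Its level was highest in basophil/mast-like cells, at 2247, 2153 and 2258 CPM in the first 3 libraries and 1257 CPM in Mll3/4SI. Spi1 was read in HSC/MPP-like cells at 155, 162, 161 and 148 CPM and in late granulocyte-like cells at 350, 363, 350 and 338 CPM, so its libraries lay close together in both classes. In erythroid-like cells, which are known to shut Spi1 off, it was at 30.3, 38.5, 37.4 and 23.4 CPM. Cebpa, which commits cells to the granulocyte-monocyte path, was at 113, 107, 119 and 102 CPM in HSC/MPP-like cells and at 9.60, 12.7, 6.87 and 8.31 CPM in late granulocyte-like cells. All 4 libraries thus had lower Cebpa in late granulocyte-like than in HSC/MPP-like cells, and the class ranges did not overlap.

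**Figure D1:**
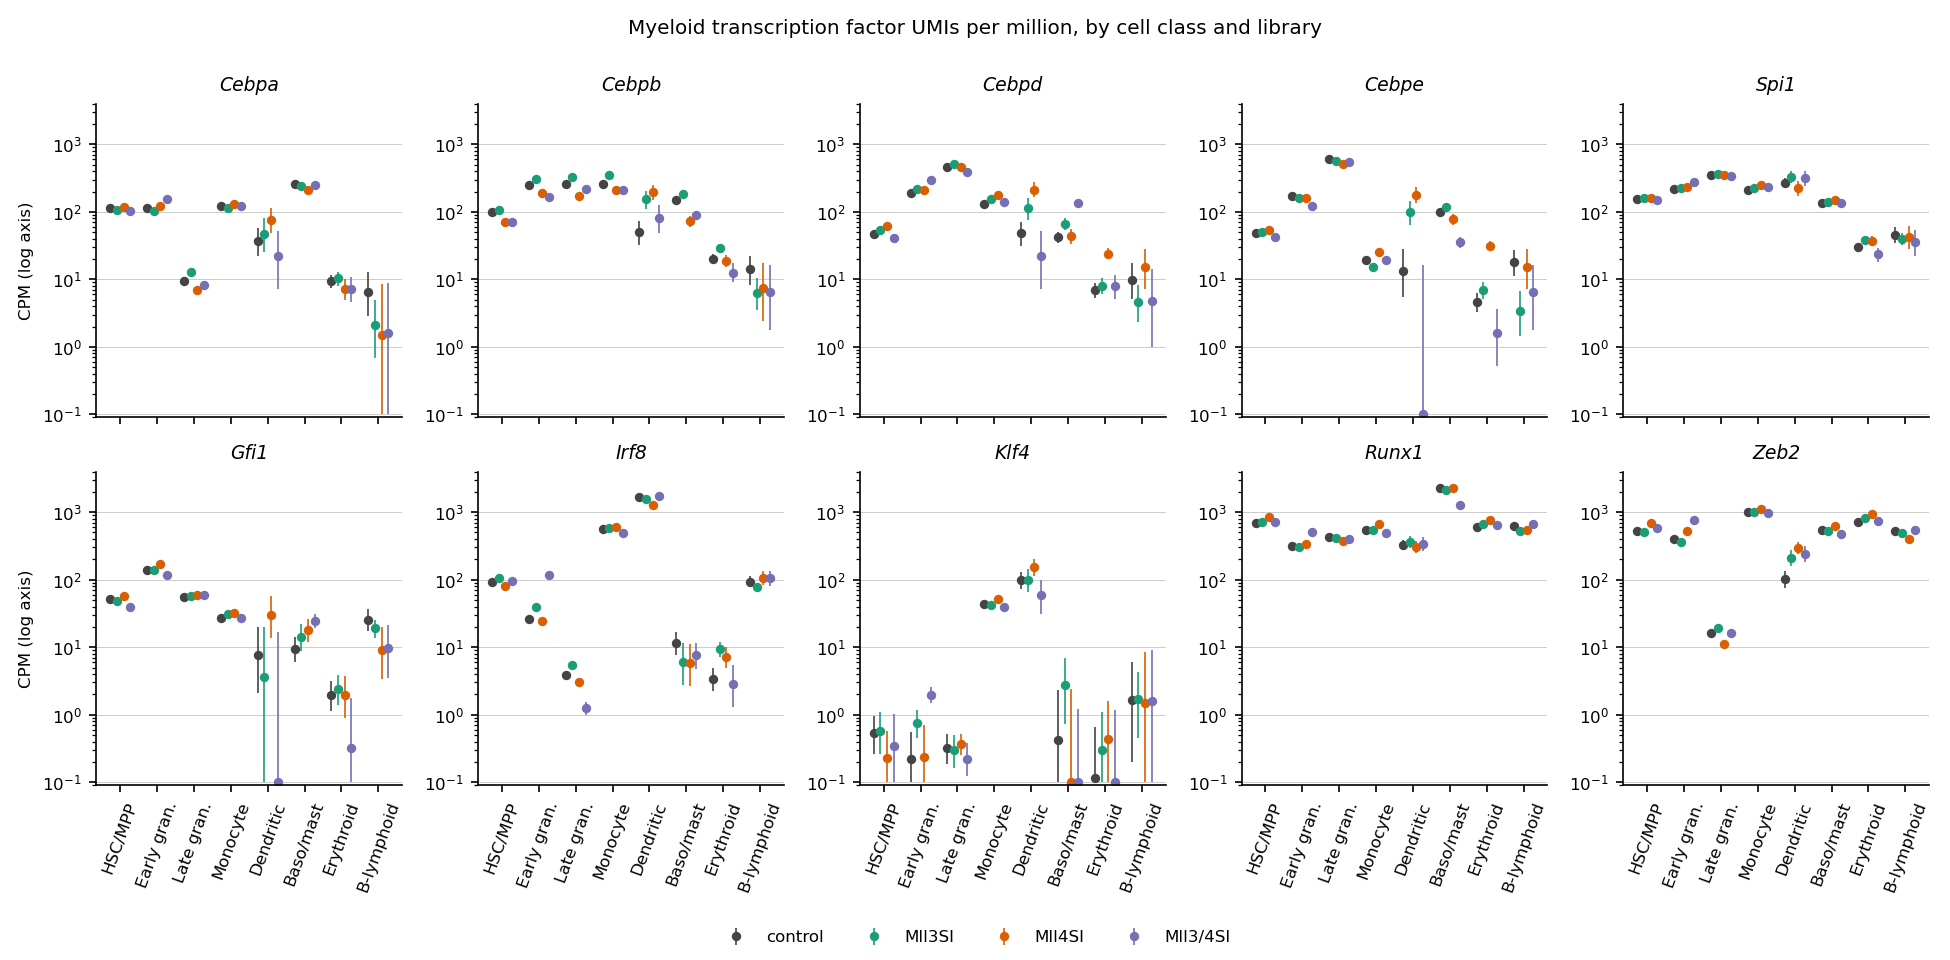
Levels of the 10 genes in CPM (log axis, 0 drawn at 0.1) in 8 cell classes, with 1 point per library and bars for the 95% Poisson interval of its count. The classes set the levels apart more than the libraries do, as for Cebpe at 519 to 617 CPM in late granulocyte-like and 15.1 to 25.8 CPM in monocyte-like cells.

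Cebpe and Cebpd had the opposite order of classes. Cebpe, which is required for secondary granules, was at 48.4, 50.8, 53.2 and 43.1 CPM in HSC/MPP-like cells, at 169, 160, 161 and 123 CPM in early granulocyte-like cells, and at 617, 558, 519 and 546 CPM in late granulocyte-like cells. Control was the highest late granulocyte-like library, and the ratios to it were small (log2 -0.14, -0.25 and -0.18). Cebpd took the same order of classes, at 47.1, 54.7, 61.5 and 40.7 CPM, then 188, 220, 212 and 295 CPM, then 455, 511, 463 and 394 CPM. Gfi1 was highest in early granulocyte-like cells, at 141, 138, 169 and 116 CPM, and lower in late granulocyte-like cells, at 54.8, 57.1, 60.1 and 60.1 CPM. Mll4SI was the highest and Mll3/4SI the lowest early granulocyte-like library for Gfi1.

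Among the named classes, Irf8 and Klf4 were highest in dendritic-like and then monocyte-like cells in every library, and Zeb2 was highest in monocyte-like cells. Irf8 stood at 561, 592, 611 and 489 CPM in monocyte-like cells and at 1691, 1580, 1292 and 1726 CPM in dendritic-like cells (52, 34, 27 and 23 cells). Klf4, a zinc-finger factor of the monocyte lineage, was at 43.4, 42.4, 51.2 and 39.8 CPM in monocyte-like cells and under 1 CPM in HSC/MPP-like cells of every library. Zeb2 was at 1023, 1004, 1110 and 968 CPM in monocyte-like cells, at 704, 809, 932 and 735 CPM in erythroid-like cells and at 521, 501, 694 and 586 CPM in HSC/MPP-like cells. It was lower in dendritic-like cells, at 102, 211, 297 and 243 CPM, and in late granulocyte-like cells, at 16.1, 18.9, 11.2 and 16.2 CPM. In monocyte-like cells the highest and lowest library of Irf8, of Klf4 and of Zeb2 lay less than 1.41-fold apart.

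Surface CD11b, an integrin gained as granulocytes mature, orders the cells without use of RNA. Cells of each library were put in 4 equal bins by the CD11b share of their surface antibody UMIs. From the lowest to the highest bin, Cebpe in control read 37.4, 140.9, 600.3 and 619 CPM, and Cebpa read 110.1, 90.5, 12.8 and 11.6 CPM. Irf8 in control read 258, 142, 10.3 and 3.78 CPM. In the second bin of Mll4SI Cebpe was at 433 CPM, near the 519 CPM of that library's late granulocyte-like cells. Cebpa at 24.1 CPM and Irf8 at 34.7 CPM in that bin were still above the 6.87 and 3.07 CPM of those cells. The CD11b share itself was higher in that bin, with a median of 11.8% in Mll4SI against 1.75% in control, and late granulocyte-like cells made up 71.8% of Mll4SI and 51.9% of control. The part of these in the values was not tested. In Mll3/4SI the lowest bin stood apart instead, with Irf8 at 133 CPM, Klf4 at 4.48 CPM and Cebpb at 61.7 CPM, against 258, 15.1 and 148 CPM in control. Monocyte-like cells made up 4.83% of Mll3/4SI and 11.8% of control, and an unnamed cluster, described below, made up 13.5% of Mll3/4SI. The part of these shares in the bin was not tested.

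CD16/32, the Fc receptors gained by granulocyte-monocyte progenitors, ordered the monocyte factors. From the lowest to the highest of 4 bins by the CD16/32 share, Klf4 read 2.74, 2.09, 3.43 and 23.5 CPM in control, with the top bin set apart. Its top-bin level was 26.4, 18.5 and 8.46 CPM in the other libraries in the same order. Irf8 in the top bin was at 226, 256, 153 and 114 CPM, again lowest in Mll3/4SI. The bins mix the classes, and the share of monocyte-like cells was also lowest in Mll3/4SI. By CD34, an antigen of immature progenitors, Cebpa in control read 11.8, 22.6, 79.5 and 118 CPM from the lowest to the highest bin. The top CD34 bins of Mll3SI, Mll4SI and Mll3/4SI lay at 111, 115 and 121 CPM, close to control.

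**Figure D2:**
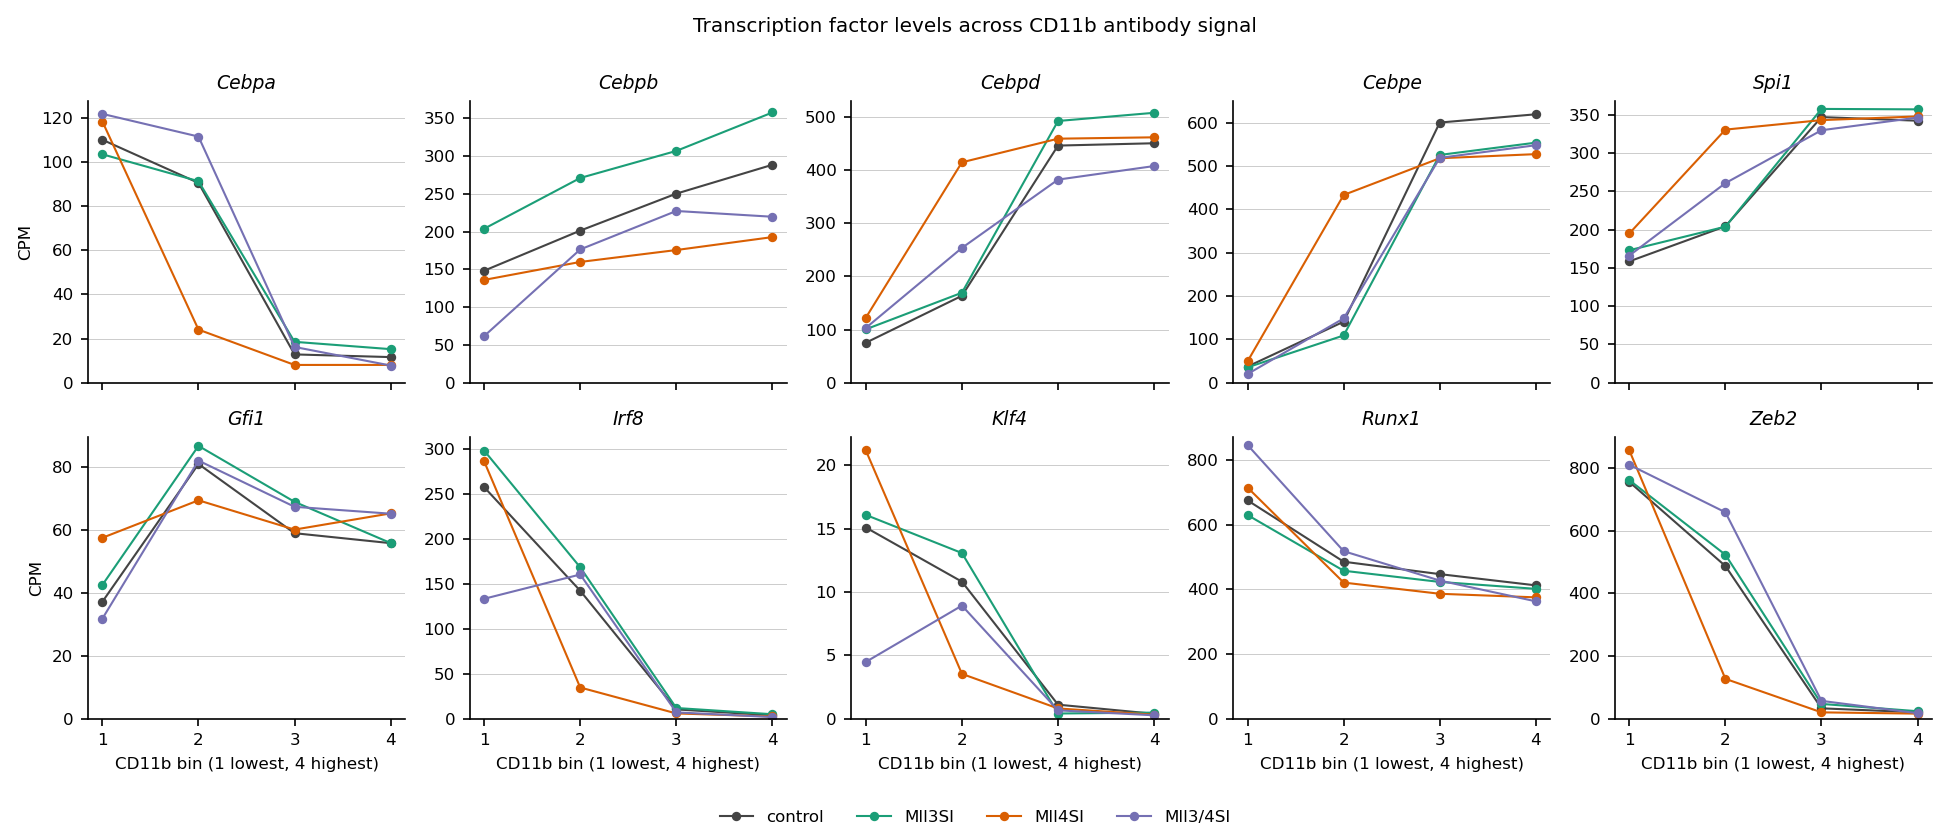
CPM of the genes in 4 equal bins of cells ordered by the CD11b share of surface antibody UMIs, with 1 line per library. Cebpe of Mll4SI stands at 433 CPM in the second bin, against 140.9 CPM in control.

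Each library was then compared with control within a class, as the log2 ratio of CPM plus 1, and a gene was called when that ratio was at least 0.5 in size. The 3 comparisons share the control library. Over all kept cells 0 of the 10 members were called in Mll3SI (3.01% of all genes) and 0 in Mll4SI (12.4%). Mll3/4SI had 2 called (8.82%), Irf8 and Klf4, both lower. In the clusters shared by libraries these counts were 0 in Mll3/4SI (5.09% of all genes) and 4 in Mll4SI (7.88%), which were Cebpb, Irf8, Klf4 and Zeb2. Irf8 and Klf4 were higher there and Cebpb lower. The clusters left out held 4496 of 10186 Mll4SI cells, and those drawn mainly from Mll4SI were late granulocyte-like. The part of this change of cells in the calls was not tested. Among HSC/MPP-like cells 0 members were called in any library, against 3.73%, 9.56% and 7.61% of all genes in the 3 libraries in that order. The count in Mll3/4SI was 4 with cells given the class of the nearest control cells (14.7% of all genes) and 6 with an unnamed cluster, described below, counted in (15.9%). In monocyte-like cells the count was again 0 in each, against 2.54%, 6.89% and 5.98%. In late granulocyte-like cells it was 0 in Mll3SI (2.99%), 1 in Mll4SI, which was Cebpb, lower (8.79%), and 1 in Mll3/4SI, which was Irf8, lower (7.84%). In early granulocyte-like cells it was 2 in Mll3SI, Irf8 and Klf4, both higher (3.46%), and 0 in Mll4SI (9.52%). There it was 6 in Mll3/4SI, with 5 higher and 1 lower (17.9%), and the members' median log2 ratio was 0.56 against 0.04 over all genes. The late granulocyte-like cells were spread differently over clusters. Clusters 0 and 7 held 1307 and 728 of 3498 cells in control and 689 and 386 of 3460 in Mll3/4SI, where cluster 13 held 1135 and had 4 control cells. Clusters 2, 5 and 1 held 1932, 1659 and 1410 of 7310 in Mll4SI. Klf4 was under the mean of 1 CPM asked of the background genes in HSC/MPP-like and both granulocyte-like classes, so 9 of 10 members passed that filter there. The member counts do not use the filter. Klf4 is thus among those called in early granulocyte-like cells of Mll3SI and Mll3/4SI, though a background gene at its level would be left out.

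**Figure D3:**
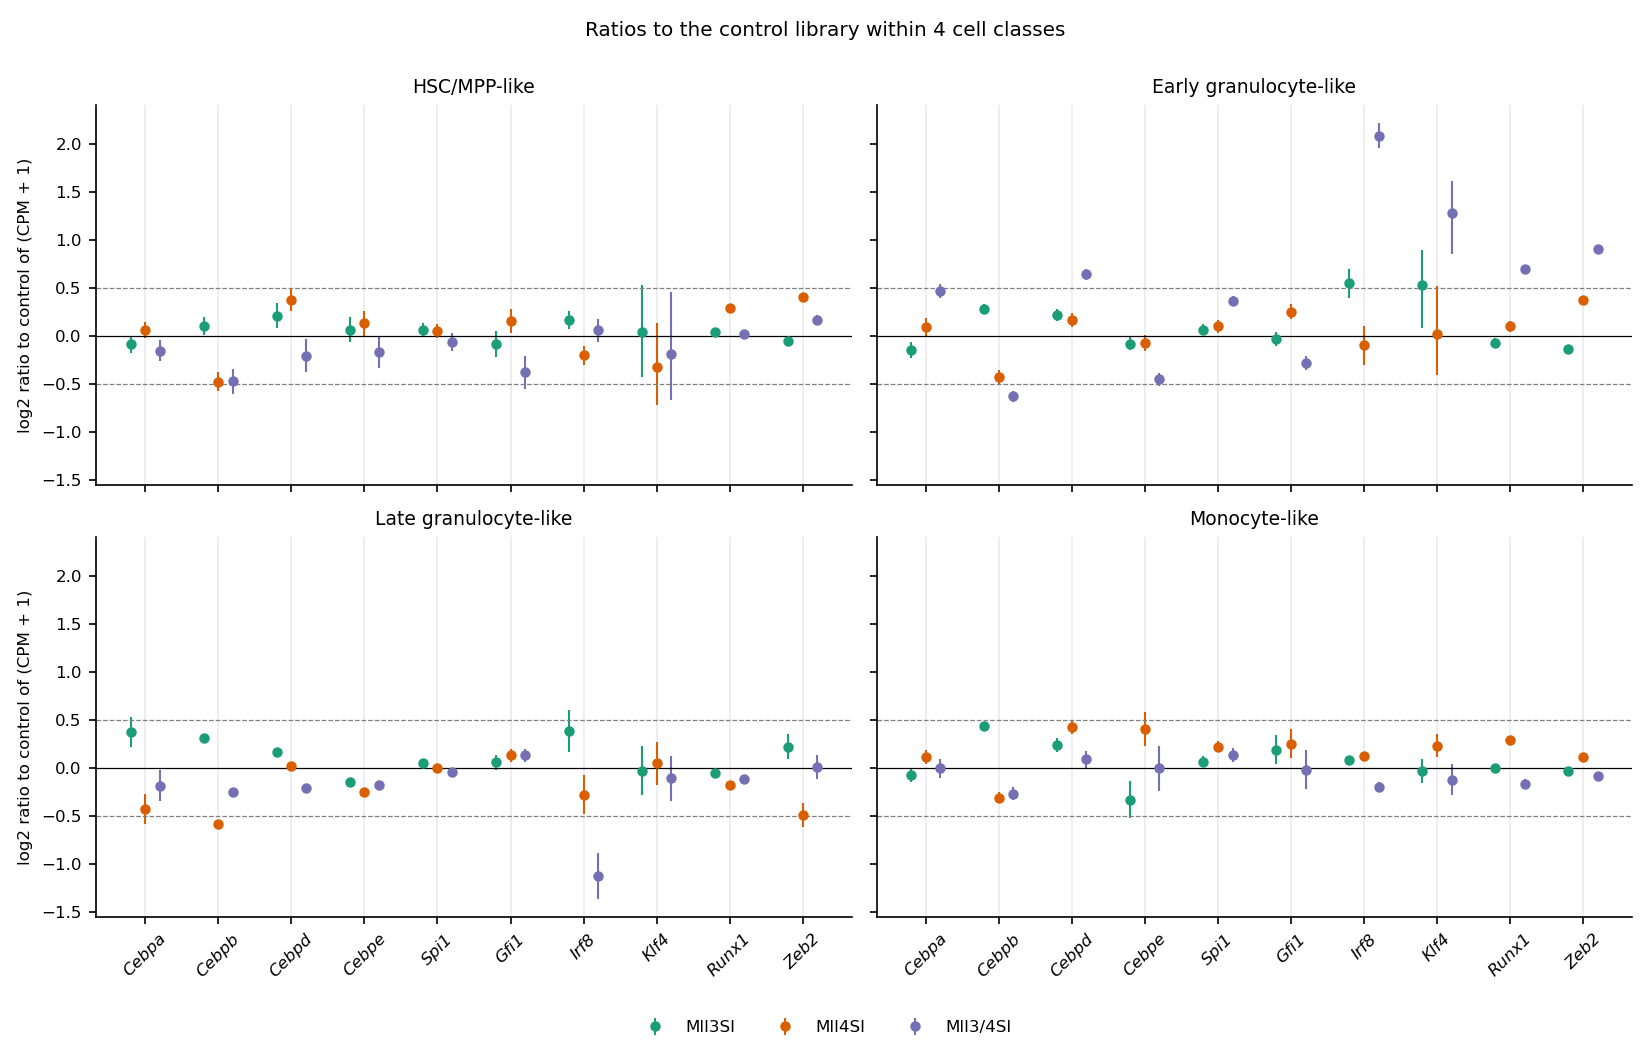
Log2 ratio to control of each gene in 4 cell classes, for Mll3SI, Mll4SI and Mll3/4SI, with bars for the 95% counting interval and dashed lines at 0.5 and -0.5. Cebpb lies above 0 in Mll3SI and below 0 in Mll4SI and Mll3/4SI in all 4 classes, and the early granulocyte-like class of Mll3/4SI holds the widest spread.

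Cebpb, the C/EBP factor of stress granulopoiesis, was highest in Mll3SI and lower than control in Mll4SI and Mll3/4SI throughout the main myeloid classes. Its level in HSC/MPP-like cells was 98.4, 106, 70.4 and 70.6 CPM in control, Mll3SI, Mll4SI and Mll3/4SI, and its level in early granulocyte-like cells was 253, 307, 189 and 164 CPM. In late granulocyte-like cells it stood at 262, 326, 174 and 220 CPM. In monocyte-like cells it stood at 258, 349, 208 and 214 CPM. The narrowest gap was that of Mll3SI in HSC/MPP-like cells (log2 ratio 0.11, interval 0.01 to 0.20). Over all kept cells the log2 ratios were 0.37 (0.35 to 0.40), -0.39 (-0.41 to -0.36) and -0.39 (-0.41 to -0.36). They passed 0.5 in size in late granulocyte-like cells of Mll4SI (-0.59, -0.62 to -0.55) and in early granulocyte-like cells of Mll3/4SI (-0.63, -0.68 to -0.57). In late granulocyte-like cells of Mll4SI, Cebpb stood at 155 CPM (-0.76) in the clusters shared by libraries, where 20.4% of all genes were called. Basophil/mast-like cells gave -1.03 in Mll4SI and -0.76 in Mll3/4SI, from 114 and 270 UMIs.

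Cells that carried 1 hashtag alone also placed Mll3SI above control and the other libraries below it in the 4 main classes. Of these placements 2 had intervals that include 0: Mll3SI in HSC/MPP-like cells with Hashtag1 (0.08, -0.07 to 0.22) and Mll3/4SI in monocyte-like cells with Hashtag1 (-0.08, -0.17 to 0.01). In HSC/MPP-like cells with Hashtag1, Cebpb was at 91.8, 96.9, 68.9 and 76.4 CPM, and with Hashtag2 at 100.3, 111, 71.0 and 57.4 CPM. In early granulocyte-like cells the values were 234, 304, 176 and 172 CPM with Hashtag1 and 266, 307, 201 and 158 CPM with Hashtag2. What the hashtags marked is not given, so these are not counted as replicates. Late granulocyte-like cells gave log2 ratios of 0.32, -0.59 and -0.22 with Hashtag1 and 0.27, -0.63 and -0.30 with Hashtag2. Monocyte-like cells gave 0.34, -0.22 and -0.08, and 0.51, -0.43 and -0.61.

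**Figure D4:**
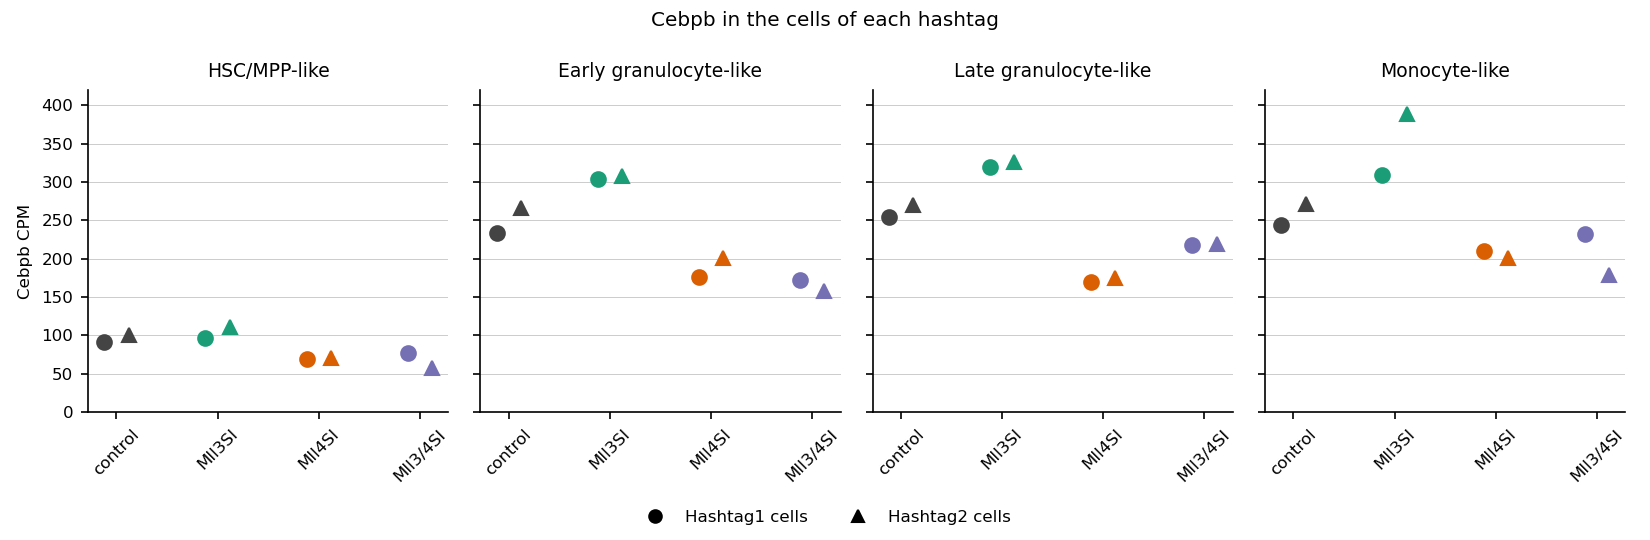
Cebpb in CPM for cells with Hashtag1 alone and cells with Hashtag2 alone, by class and library, drawn as points without intervals. Both hashtags place Mll3SI above control and Mll4SI and Mll3/4SI below it, as at 304, 176 and 172 CPM against 234 CPM in early granulocyte-like cells with Hashtag1.

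Early granulocyte-like cells of Mll3/4SI held the other large differences. Irf8, which opposes the granulocyte fate, was at 26.3, 39.0, 24.5 and 115 CPM in control, Mll3SI, Mll4SI and Mll3/4SI, a log2 ratio of 2.09 (1.96 to 2.22) in Mll3/4SI. Klf4 was at 0.219, 0.758, 0.239 and 1.98 CPM, from 4, 19, 3 and 59 UMIs, and gave 1.29 (0.85 to 1.61). Zeb2 was at 401, 365, 519 and 755 CPM (0.91), Runx1 at 318, 302, 341 and 517 CPM (0.70), and Cebpd at 188, 220, 212 and 295 CPM (0.64). Mll3/4SI was the highest library for all 5 of these genes, while for Cebpb and Cebpe, at 169 and 123 CPM in control and Mll3/4SI, it was the lowest.

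The Mll3SI calls of Irf8 and Klf4 in this class were lost with 10 CPM added (0.43 and 0.07), as was the Klf4 call of Mll3/4SI (0.23). They were also lost without cells that carried both hashtags (0.45 for Irf8 and 0.27 for Klf4). Irf8 of Mll3SI was at 32.5 CPM in cells with Hashtag1 alone and 33.6 CPM with Hashtag2 alone, both under the 39.0 CPM of the whole class.

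The Mll3/4SI values rest on 1 cluster. It drew 881 of its 891 cells from Mll3/4SI and holds most of that library's 1272 early granulocyte-like cells. In the other 391 cells, which lay in clusters shared by libraries, Irf8 was at 19.3 CPM (-0.43, -0.67 to -0.20), below control. Zeb2 was at 385 CPM (-0.06), Runx1 at 323 CPM (0.02), Klf4 at 0.0960 CPM (-0.15), Cebpd at 230 CPM (0.28) and Cebpb at 223 CPM (-0.18), and 0 of 10 members were called (8.68% of all genes; member median 0.02, all genes -0.03). Within the cluster Irf8 was at 167 CPM, Zeb2 at 953 CPM, Runx1 at 620 CPM and Klf4 at 2.98 CPM. Cebpa there was at 179 CPM, Cebpb at 132 CPM and Cebpe at 86.0 CPM. Set against control early granulocyte-like cells, 8 of 10 members were called in it, 6 higher and 2 lower (27.0% of all genes). Klf4, 1 of the 6, was under the fold with 10 CPM added (0.35). The whole monocyte marker list summed to 1796 CPM in the cluster, 1256 in control early granulocyte-like and 3300 in control monocyte-like cells. The late granulocyte list summed to 13315 CPM in it and 5510 CPM in control early granulocyte-like cells. The HSC/MPP list summed to 834 against 266 CPM in the same comparison, and the basophil/mast list to 734 against 134 CPM. The early granulocyte list, which named the cluster, was lower in it, at 28913 against 35603 CPM. The late granulocyte list was led by S100a9, S100a8 and Camp in both, and some of its genes went the other way. Ltf and Fcnb were at 16.8 and 24.6 CPM in the cluster. They were at 30.5 and 120 CPM in control early granulocyte-like cells of the shared clusters. The part of these lists in the members' values was not tested.

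**Figure D5:**
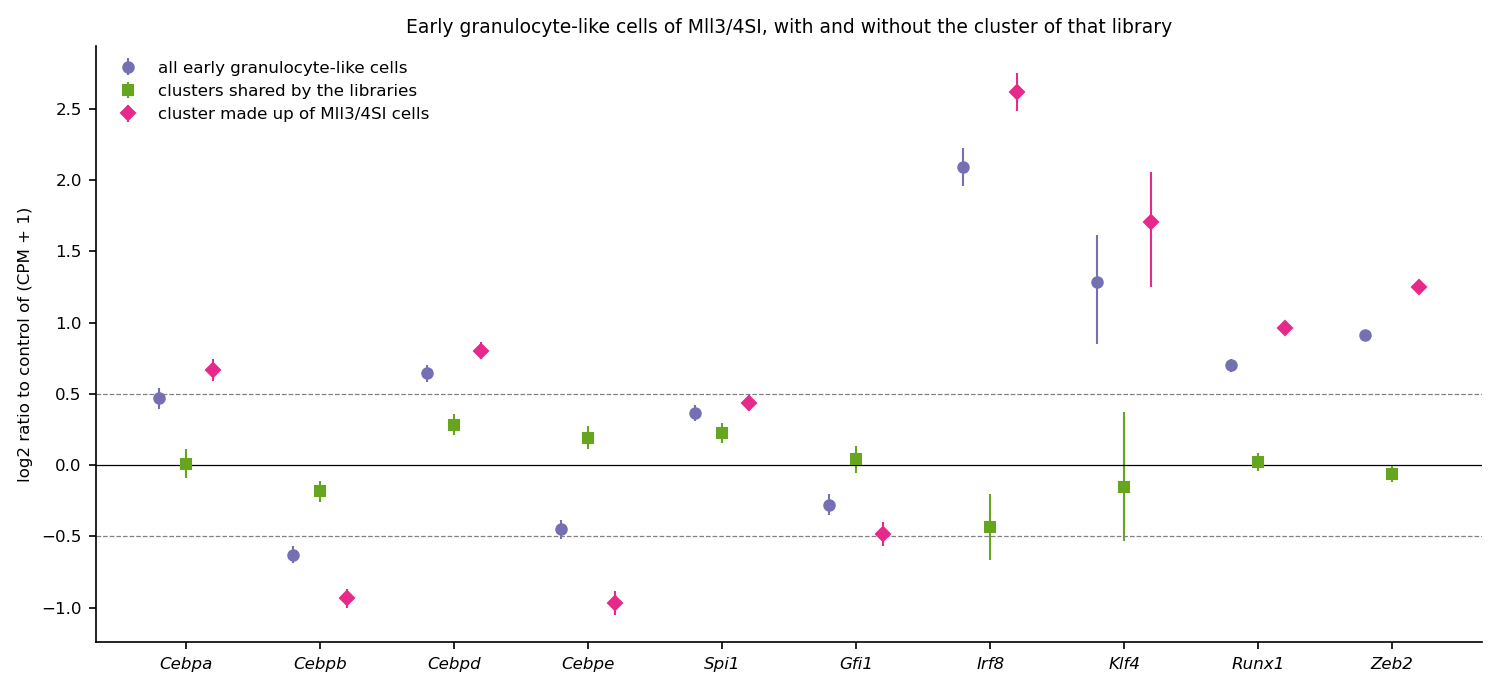
Log2 ratio to control of each gene in early granulocyte-like cells of Mll3/4SI. The series are all cells, clusters shared by libraries and the cluster drawn from Mll3/4SI. The shared clusters lie near control, as for Irf8, which was at 19.3 CPM in them and 26.3 CPM in control. In the Mll3/4SI cluster Irf8 was at 167 CPM, a log2 ratio of 2.62.

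The cluster was unevenly spread over the hashtags. It took 6.90% of the Mll3/4SI cells with Hashtag1 alone and 18.3% of those with Hashtag2 alone. Irf8 in early granulocyte-like cells of Mll3/4SI was 65.98 CPM with Hashtag1 (log2 ratio 1.36 to control cells with that hashtag) and 142 CPM with Hashtag2 (2.55). Both values exceeded those of control, at 25.0 and 23.5 CPM.

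The share of early granulocyte-like cells with an Irf8 UMI, after thinning each cell to 3000 UMIs, was 6.75%, 8.43% and 6.58% in control, Mll3SI and Mll4SI, and 21.4% in Mll3/4SI cells. Without thinning the shares were 21.5%, 20.2%, 19.2% and 46.1%. Erythroid-like cells, taken as background, had thinned shares of 0.737%, 1.89%, 0.450% and 0%, so all early granulocyte-like shares stood above it. The last was 0 of 125 cells, for which the exact 95% upper limit is 2.91% (2.40% at 3 cells of the total). Median UMIs were 23571 in early granulocyte-like and 17970 in erythroid-like cells of control. Cells with both Irf8 and Cebpe UMIs made up 1.19% (0.55 to 2.25) in control and 1.82% (1.16 to 2.72) in Mll3/4SI, while the share with a Cebpe UMI was 39.8% and 27.9%. Cells with both Irf8 and Gfi1 made up 1.32% and 2.77%, while the share with a Gfi1 UMI was 32.8% and 29.4%. In both libraries most cells with an Irf8 UMI had neither a Cebpe nor a Gfi1 UMI at this depth.

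A second cluster of Mll3/4SI, left unnamed by the marker rule, held 913 of its cells (13.5% of the library) and 4 cells of the other libraries. Its HSC/MPP marker list summed to 3292 CPM, against 2563 in control HSC/MPP-like cells, and its basophil/mast list to 1657 against 328. Its megakaryocyte list summed to 466 against 35.6, led by Pf4, with 3 of 9 genes at 10 CPM or more. Control basophil/mast-like cells summed to 5481 for the basophil/mast list. The monocyte list (717 against 298) and the early granulocyte list (9799 against 8674) were also higher in the cluster. The lymphoid-primed list (89.9 against 375) and the erythroid list (85.4 against 225) were lower. Set against control HSC/MPP-like cells, 6 of 10 members were called, 3 higher and 3 lower (21.7% of all genes). Cebpd was at 99.9 CPM (1.07), Klf4 at 2.23 CPM (1.08) and Zeb2 at 860 CPM (0.72), all above control. Cebpe was at 9.35 CPM (-2.26), Cebpb at 44.8 CPM (-1.12) and Gfi1 at 24.6 CPM (-1.03), all below. With 10 CPM added the Klf4 ratio was 0.22, under the fold. Runx1 was at 976 against 703 CPM (0.47, 0.44 to 0.50) and Cebpa at 94.7 against 113 CPM (-0.26, -0.34 to -0.17), both within the fold. Spi1 at 163 against 155 CPM and Irf8 at 91.8 against 93.2 CPM had intervals that include 0. This cluster too was more frequent with Hashtag2 (18.7%, 17.46 to 20.02) than with Hashtag1 (7.48%, 6.55 to 8.50).

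Some members differed in classes with few cells or low levels. Cebpa, the factor shared by granulocyte and basophil precursors, was at 258, 243, 208 and 250 CPM in basophil/mast-like cells. Runx1 in basophil/mast-like cells of Mll3/4SI gave a log2 ratio of -0.84 (-0.90 to -0.78). Cebpd in the same cells was at 136 CPM against 41.9 CPM (1.67), and Cebpe at 35.5 against 101 CPM (-1.48). Irf8 in late granulocyte-like cells was at 3.93, 5.45, 3.07 and 1.25 CPM, the last from 78 UMIs (-1.13, -1.37 to -0.89). It stood at 1.04 CPM in the clusters shared by libraries. Irf8 in erythroid-like cells, taken as background, was at 3.38, 9.28, 7.21 and 2.84 CPM. In late granulocyte-like cells only the control level lay above this background. Over all kept cells Irf8 was at 125, 145, 114 and 86.0 CPM (-0.54 in Mll3/4SI) and Klf4 at 8.14, 8.95, 8.76 and 3.97 CPM (-0.88), while monocyte-like cells, their main source, made up 11.8%, 14.0%, 9.44% and 4.83% of the libraries. Within monocyte-like cells the ratios in Mll3/4SI were -0.20 (-0.24 to -0.15) for Irf8 and -0.12 (-0.29 to 0.04) for Klf4. Over the clusters shared by libraries they were -0.39 and -0.33 in all cells of Mll3/4SI, and 0.53 and 0.69 in those of Mll4SI. The clusters left out that were drawn mainly from Mll4SI were late granulocyte-like. Monocyte-like cells were 962 of the 5690 Mll4SI cells that stayed, against 798 of 6679 in control. The part of this change of cells in the ratios was not tested.

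In HSC/MPP-like cells of Mll4SI Zeb2 was at 694 against 521 CPM (0.41, 0.37 to 0.45) and Cebpd at 61.5 against 47.1 CPM (0.38). In its erythroid-like cells Cebpe was at 31.0 against 4.66 CPM and Cebpd at 24.0 against 6.87 CPM, in the library with the highest granule-gene background.

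Lists of partner genes and targets were read beside the members. They hold 42 partners, cofactors and antagonists, 16 targets of C/EBP-alpha and PU.1, 15 secondary granule and oxidase genes of C/EBP-epsilon, and 14 targets of IRF8 and KLF4. Of these 2, 6, 8 and 10 are also markers that named the classes, so the target lists are not independent of the class names. In HSC/MPP-like cells of Mll4SI, 11 of 15 C/EBP-epsilon targets were higher and 2 lower, beside 9.56% of all genes called, and the list's median was 1.95 against -0.01 over all genes: Camp, an antimicrobial peptide of secondary granules, was at 1666 against 250 CPM (2.73), and Cybb, a subunit of the phagocyte oxidase, at 71.2 against 8.54 CPM (2.92). In early granulocyte-like cells of Mll4SI 9 were higher and 2 lower (9.52% of all genes called), led by Ngp, a granule protein, at 939 against 96.2 CPM (3.27). In late granulocyte-like cells, where these genes are made, 2 were higher and 2 lower (8.79%), and Cebpe itself did not exceed control in any of the 3 classes by the fold. Monocyte-like cells of Mll4SI had 9 of 13 higher and 1 lower (6.89%), with a list median of 1.04. In Mll3SI 5 of 15 were higher and 0 lower in HSC/MPP-like cells (3.73%), and likewise in early granulocyte-like cells (3.46%). Granule genes were also higher in erythroid-like cells of Mll4SI (Camp at 3334 against 358 CPM), and the part of free RNA in the list's values was not tested.

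In early granulocyte-like cells of Mll3/4SI 9 of the 12 IRF8 and KLF4 targets with at least 1 CPM were higher and 0 lower, beside 17.9% of all genes called, with a list median of 0.98 against 0.04. Ccr2, the monocyte chemokine receptor, was at 60.9 against 3.01 CPM (3.95), and Ms4a6c at 468 against 38.4 CPM (3.57). In the shared clusters 3 of 10 were higher, beside 8.68% of all genes, with Ccr2 at 11.4 CPM (1.63) and Ms4a6c at 89.3 CPM (1.20). Of 29 partners 8 were higher and 0 lower, with Jun, a basic leucine zipper partner of C/EBP factors, at 58.4 against 8.31 CPM (2.67) and Id1, an inhibitor of helix-loop-helix factors, at 76.7 against 26.0 CPM (1.53). In the shared clusters 5 partners were higher, with Jun at 25.1 CPM (1.48) and Id1 at 40.1 CPM (0.61). C/EBP-epsilon targets split, with 5 higher and 7 lower of 15, and with 5 higher and 3 lower of 14 in the shared clusters. Chil3, a chitinase-like protein, was at 38.2 against 125 CPM (-1.69) and at 68.1 CPM in the shared clusters (-0.87). Late granulocyte-like cells of Mll3/4SI also had less of it (-1.67, and -0.94 in shared clusters). There 6 of 15 C/EBP-epsilon targets were lower and 1 higher, beside 7.84% of all genes called. In the shared clusters 4 of 15 were lower and 1 higher, beside 5.8% of all genes. The members' partner Hdac1, a histone deacetylase, was lower in Mll4SI in each class, by log2 ratios of -0.81 to -1.13.

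The genes whose levels over 28 points (each a class in a library with at least 50 cells) followed each member most closely were found among 8599 genes by Pearson correlation of log2 levels. Irf8 was nearest to Ly86 (r = 0.98), Zeb2 to Hadhb (0.98), Cebpd to Igsf6 (0.98), Spi1 to Arpc1b (0.96) and Cebpa to Klhl5 (0.96). Runx1 was nearest to Serpini1 (0.95), Cebpb to Rps6ka1 (0.95), Klf4 to Gm15987 (0.94), Cebpe to Cep19 (0.93) and Gfi1 to Gadd45b (0.92). The points share libraries and classes, and the correlations are descriptions. Among members the pair Cebpd and Spi1 had an r of 0.92.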

How the data were processed

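The authors deposited counts of UMIs per gene and antibody for each cell barcode, made with Cell Ranger 7.1.0 on mm10, per the submitters' processing notes and the file headers. The cell-calling settings are not given in the sources used here. From these, barcodes with at least 500 genes, 1000 UMIs and at most 10% mitochondrial UMIs were kept. The highest Scrublet scores, 0.8% per 1000 cells, were removed as likely doublets. Cells were clustered with scanpy 1.11.5 (2000 variable genes without the 10 members, class markers, listed genes and sex-linked genes; 30 components, 15 neighbours, leidenalg 0.10.2 at resolution 1). A cluster was named where at least 3 markers of a class had a log2 fold of 1, that class led the next by 2 markers and it led the top 10 genes; this rule was set after the clusters were seen. Other clusters stayed unnamed, so class values rest on rebuilt names. UMIs were summed per library and class and scaled to CPM. Ratios to control used CPM plus 1, with intervals built from exact Poisson limits; shares have exact Clopper-Pearson limits. The script was tested on simulated data. Background genes had a mean of at least 1 CPM. All 10 members are named, and of the lists the genes with the largest ratios. The members and lists were chosen with earlier results of these data known. PCR duplicates are removed by UMIs, and intervals cover counting error only, not differences between animals or libraries. Python 3.11.15, numpy 2.4.6, scipy 1.17.1 and pandas 2.3.3 were used.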

Additional observations from a re-analysis of the deposited data

Results flagged for a closer look

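In 3 cases a member lay past the fold in opposite directions in 2 named classes of Mll3/4SI, with both intervals clear of 0. These differences were not tested. Irf8 had a log2 ratio to control of 2.09 in early granulocyte-like cells (3446 UMIs) and -1.13 in late granulocyte-like cells (78 UMIs). The late granulocyte-like levels, 3.93 CPM in control and 1.25 CPM in Mll3/4SI, were near or below the erythroid-like background of 3.38 and 2.84 CPM. Runx1 had 0.70 in early granulocyte-like cells (15431 UMIs) and -0.84 in basophil/mast-like cells (3818 UMIs). Gfi1 had 1.27 in basophil/mast-like cells (74 UMIs) and -1.18 in erythroid-like cells (1 UMI). The early granulocyte-like values of Irf8 and Runx1 were -0.43 and 0.02 in the clusters shared by libraries.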

How the results depend on the processing

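Of 1620 member ratios recomputed under the alternatives, 1264 lay within the counting interval of the reported ratio, 352 outside it with the same direction or uncalled, and 4 called ratios changed sign. The 4 were Klf4 in early granulocyte-like cells of Mll3SI with Hashtag1 alone (-0.24) and, without clusters drawn over 80% from 1 library (chosen after seeing the data), Irf8 (-0.43), Klf4 (-0.15) and Zeb2 (-0.061) in early granulocyte-like cells of Mll3/4SI. Cebpb had the reported sign in all 54 recomputed values of each library, over classes and alternatives. The cause of the changes below was not tested. Counts of members past the fold that moved were as follows. Over all cells Mll4SI gave 1 to 4 in place of 0, and Mll3/4SI 0 or 1 in place of 2. In HSC/MPP-like cells Mll4SI gave 1 or 3 and Mll3/4SI gave 1, 4 or, with the unnamed cluster counted in (chosen after seeing the data), 6, all in place of 0. In early granulocyte-like cells Mll3SI gave 0 or 1 in place of 2. Mll3/4SI gave 0 there without the one-library cluster (8.68% of all genes) and 1 with cells assigned to the nearest control class (12.2%). With Hashtag1 it gave 2, all in place of 6. In late granulocyte-like cells Mll3SI gave 2 with doublets kept, Mll4SI 2 or 3 and Mll3/4SI 0 or 2. In monocyte-like cells Mll3SI gave 2, Mll4SI 1 and Mll3/4SI 1 or 2, in place of 0. With 10 CPM added, list counts moved to 0 to 7, and the count over all genes fell from 302 to 2136 down to 53 to 845 over the 15 comparisons. Without the one-library cluster the partner, C/EBP-alpha and PU.1, and IRF8 and KLF4 lists gave 5, 3 and 3 in early granulocyte-like cells of Mll3/4SI, and all genes 1024 in place of 2136. There the C/EBP-epsilon list gave 5 higher and 3 lower in place of 5 and 7. The next counts are for late granulocyte-like cells without such clusters (chosen after seeing the data). In Mll4SI the partner, C/EBP-alpha and PU.1, and IRF8 and KLF4 lists gave 5 of 28, 2 of 14 and 2 of 8, beside 20.4% of all genes. In Mll3/4SI the partner and IRF8 and KLF4 lists gave 0 of 28 and 2 of 8, beside 5.8% of all genes. Without thinning, Irf8 shares were 21.5%, 20.2%, 19.2% and 46.1% in early granulocyte-like and 6.54%, 9.56%, 5.78% and 5.26% in erythroid-like cells. No paired analysis was possible because each group has 1 library. Depth limits values that rest on few UMIs, such as Klf4 in early granulocyte-like cells (3 to 59 UMIs) and Gfi1 in erythroid-like cells (1 to 17 UMIs).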
